A study of Homo sapiens with 16 samples.

Results

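The genes described here are 9 members of the MHC class I antigen presentation machinery, taken by name from the 33937 genes of the count table: the heavy chains *HLA-B*, *HLA-C*, *HLA-E* and *HLA-F*, the light chain *B2M*, the peptide transporter subunits *TAP1* and *TAP2*, and the immunoproteasome subunits *PSMB8* and *PSMB9*. RNA came from HCT116, an established human colorectal carcinoma line, made into stable lines that carry a doxycycline-inducible shRNA, either scrambled (SCR or CTRL) or against *NAA40*, which encodes a histone N-terminal acetyltransferase (KD). The 4 groups hold 4 libraries each. CTRL-Dox and KD-Dox are labelled as treated with doxycycline at 1 µg/ml for 96 h, and CTRL-wDox and KD-wDox as grown without it. All 4 groups share the parental line and the inducible cassette. The RNA-seq plot of the study names a single NAA40-directed line, so that lower *NAA40* and other effects of the same shRNA cannot be told apart. Members were compared on TMM-normalized CPM, counts scaled to the effective size of their library, and a gene was called different at an adjusted p under 0.05 by the quasi-likelihood test of edgeR, adjusted after Benjamini and Hochberg over all genes tested.

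MHC class I molecules display peptides from inside the cell to CD8+ T cells and natural killer cells. Proteasomes cut proteins into peptides, and the immunoproteasome exchanges the catalytic subunits of the standard proteasome for inducible ones such as *PSMB8* and *PSMB9*. The heterodimer of *TAP1* and *TAP2* then moves peptides into the endoplasmic reticulum, where they are loaded onto a heavy chain paired with β2-microglobulin, the product of *B2M*. Most of these genes respond to interferon, NF-κB and the class I transactivator *NLRC5*, and their loss is a known route of immune escape in colorectal cancer.

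On GRCh38 (GENCODE 29), 8 of the members lie in the MHC on the short arm of chromosome 6. *HLA-F* (chr6:29722775-29738528, plus strand) and *HLA-E* (chr6:30489467-30494205, plus strand) are non-classical heavy chain genes, while *HLA-C* (chr6:31268749-31272130, minus strand) and *HLA-B* (chr6:31269491-31357188, minus strand) are classical ones. *TAP2* (chr6:32821833-32838780, minus strand), *PSMB8* (chr6:32840717-32844703, minus strand), *TAP1* (chr6:32845209-32853978, minus strand) and *PSMB9* (chr6:32844136-32859585, plus strand) form a cluster in the class II region. *B2M* (chr15:44711487-44718877, plus strand) lies outside the MHC. The spans are whole genes, with exons, introns and UTRs.

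The promoters of 5 members are printed because *HLA-B*, *HLA-C* and *B2M* were lower together in the libraries labelled KD-Dox, and because *TAP1* and *PSMB9* face away from each other from start sites 488 bases apart. *HLA-E* and *HLA-F* were also lower in KD-Dox but are not printed. RefSeq (GRCh38.p14) promoters, 250 bases before to 50 after the start, were found for 8 of the 9 members, all but *HLA-E*. They are *HLA-B* (chr6:31357130-31357429, minus strand), *HLA-C* (chr6:31272043-31272342, minus strand), *B2M* (chr15:44711267-44711566, plus strand), *TAP1* (chr6:32853655-32853954, minus strand) and *PSMB9* (chr6:32853942-32854241, plus strand), each written 5′ to 3′ on the strand of its gene. Capitals mark matches, on either strand, to the interferon response element core TTTCNNTTC, the gamma-activated site TTCNNNGAA, the kappaB consensus GGGNNTTNCC, the X2 box core TGACG and the CCAAT box CCAAT.
HLA-B: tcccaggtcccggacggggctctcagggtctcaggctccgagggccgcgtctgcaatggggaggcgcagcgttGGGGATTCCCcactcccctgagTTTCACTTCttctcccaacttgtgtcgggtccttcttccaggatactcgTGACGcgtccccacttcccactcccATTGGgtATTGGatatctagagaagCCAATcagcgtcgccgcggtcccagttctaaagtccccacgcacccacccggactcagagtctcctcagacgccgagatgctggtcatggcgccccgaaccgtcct
HLA-C: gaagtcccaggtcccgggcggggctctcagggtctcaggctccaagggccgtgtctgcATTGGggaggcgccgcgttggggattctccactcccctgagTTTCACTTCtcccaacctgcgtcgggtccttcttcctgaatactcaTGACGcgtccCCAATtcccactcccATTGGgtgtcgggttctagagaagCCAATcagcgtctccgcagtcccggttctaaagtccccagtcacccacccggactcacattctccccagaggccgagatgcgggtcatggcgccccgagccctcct
B2M: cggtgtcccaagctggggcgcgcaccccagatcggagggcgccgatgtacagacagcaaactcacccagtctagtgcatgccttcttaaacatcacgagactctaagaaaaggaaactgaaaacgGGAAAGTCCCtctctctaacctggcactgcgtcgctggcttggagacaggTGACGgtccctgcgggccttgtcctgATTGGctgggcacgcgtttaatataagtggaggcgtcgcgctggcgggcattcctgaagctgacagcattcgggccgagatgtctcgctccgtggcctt
TAP1: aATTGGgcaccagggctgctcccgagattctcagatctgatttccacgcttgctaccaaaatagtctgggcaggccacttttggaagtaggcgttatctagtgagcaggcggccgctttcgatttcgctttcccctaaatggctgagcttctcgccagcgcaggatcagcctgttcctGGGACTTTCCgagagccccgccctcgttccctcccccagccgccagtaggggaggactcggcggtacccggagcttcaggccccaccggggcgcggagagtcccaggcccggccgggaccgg
PSMB9: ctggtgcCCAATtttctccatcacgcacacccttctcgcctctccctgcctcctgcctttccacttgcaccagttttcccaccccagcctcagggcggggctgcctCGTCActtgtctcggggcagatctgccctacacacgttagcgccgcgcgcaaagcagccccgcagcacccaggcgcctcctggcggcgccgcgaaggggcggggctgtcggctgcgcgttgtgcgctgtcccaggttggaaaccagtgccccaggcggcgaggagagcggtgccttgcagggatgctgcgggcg

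The *HLA-B* and *HLA-C* promoters were identical at 88.5% of aligned bases, and both held TTTCACTTC, beginning 155 and 151 bases before the start, followed by TGACG at 106 and 105 bases. The *B2M* window held a kappaB match at 125 bases, TGACG at 75 bases and a CCAAT box at 49 bases before the start. *TAP1* held a kappaB match 72 bases before its start, and *PSMB9* held TGACG at 144 bases. Of the windows not printed, that of *HLA-F*, the member with the largest fall in KD-Dox, held 2 CCAAT boxes and 0 matches to the other motifs. That of *TAP2*, which was not called in KD-Dox against CTRL-Dox, held TTTCNNTTC and TGACG. *TAP1* and *PSMB8* each had a further window at another start site. That of *TAP1* held the gamma-activated site match TTCTGGGAA. The first *PSMB8* window held TGACG, and its further window held TTCTCGGAA and TTTCACTTC. Of 35116 promoters of this length, 7.66% held TTTCNNTTC, 7.66% TTCNNNGAA, 5.68% GGGNNTTNCC, 24.6% TGACG and 34.6% CCAAT, so that the shorter motifs are common. These are matches of letters and no evidence that a factor was bound.

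*NAA40* was measured first in every library, as it tests the labels. It stood at 34.4, 25.9, 29.01 and 28.2 CPM in CTRL-wDox, 26.0, 28.3, 26.1 and 28.8 CPM in CTRL-Dox, 31.4, 29.2, 28.6 and 31.8 CPM in KD-Dox, and 12.6, 11.5, 9.25 and 13.8 CPM in KD-wDox. The target was thus low in the libraries labelled as grown without doxycycline and not in those labelled as treated, which goes against the labels. The group names below are therefore only what the labels say, and each direction depends on them.

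Total counts ran from 11065606 to 13855486 per library. Library KD-wDox 4 stood apart from the other 3 of its group: across 14366 genes, its deviation from them followed the GC content of the transcript with r = 0.89, while r was between -0.73 and 0.60 in the other 15 libraries. The lowest of these, -0.72, -0.73 and -0.66, belong to KD-wDox 1, 2 and 3, whose deviations are taken from libraries that include KD-wDox 4. In the other groups r was between -0.52 and 0.60. These values are across genes, which are not independent replicates. The median deviation of KD-wDox 4 ran from -1.38 (log2) in the lowest of 10 bins of genes by GC to 1.27 in the highest. The deviation of *HLA-B*, *HLA-C*, *HLA-E*, *HLA-F*, *B2M* and *TAP1* had the sign of the median of their GC bin. *HLA-C*, with a GC content of 62.7%, was 1.24 above the other KD-wDox libraries and *B2M*, with 40.6%, was 0.97 below them (a deviation of -0.97). The other 3 members went against their bin: *PSMB9* was at 0.40 (bin median -0.20), *TAP2* at -0.24 (0.12) and *PSMB8*, with its few counts, at -1.11 (0.42). The ratio of *HLA-C* to *B2M* counts was 2.68 in KD-wDox 4 and 0.566 to 0.807 in the other 15 libraries, and each result with KD-wDox is therefore given with and without this library. The 6 epithelial markers passed the filter on low counts, with summed levels of 4032 to 12217 CPM, while 1 of 6 leukocyte markers passed it, with sums of 1.85 to 4.44 CPM. Of 5 fibroblast and 3 endothelial markers, 1 of each list passed, and 0 were called between the KD and CTRL lines. Summed fibroblast markers were 56.9 to 196 CPM, with *COL1A1* alone at 56.6 to 195 CPM, and summed endothelial markers 0.497 to 2.96 CPM.

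**Figure D1:**
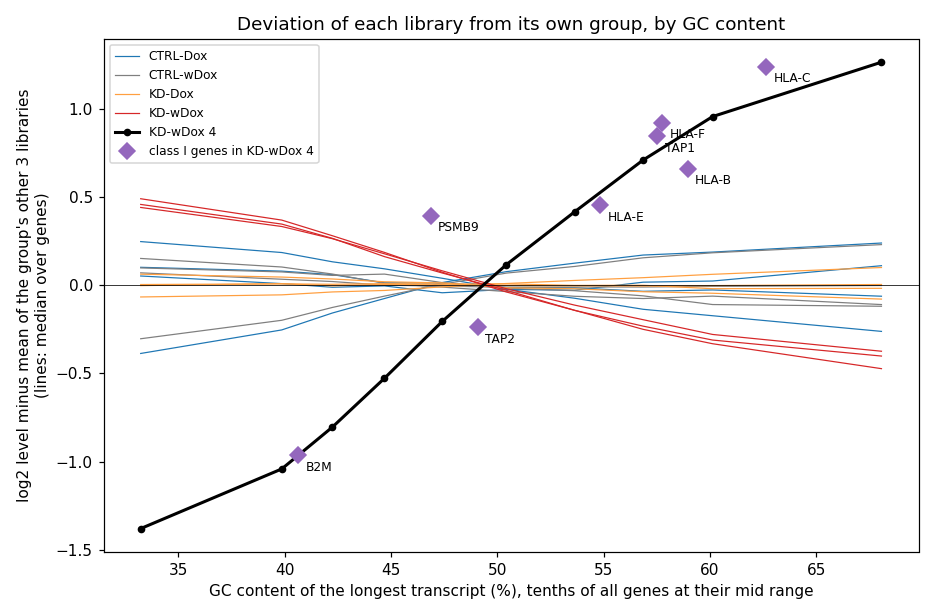
Median deviation of each library from the other 3 of its group (log2, lines) against GC content in 10 bins of genes (%), with the class I genes of library KD-wDox 4 as diamonds. The line of KD-wDox 4 runs from -1.38 to 1.27, with B2M at -0.97 and HLA-C at 1.24.

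*B2M*, *HLA-C*, *HLA-B* and *HLA-E* were the most abundant members, while the heavy chain *HLA-F* was below both transporter subunits. Per kilobase of the longest coding transcript, the mean level over 16 libraries was 197 RPKM (CPM per kilobase) for *B2M*, 158 for *HLA-C*, 95.2 for *HLA-B* and 72.0 for *HLA-E*. *TAP1* followed at 16.4 RPKM, *TAP2* at 8.53, *HLA-F* at 5.37, *PSMB9* at 4.29 and *PSMB8* at 0.399. In CTRL-wDox the neighbours *B2M* (201 ± 18.8 RPKM, SD, n = 4) and *HLA-C* (147 ± 23.1) lay further apart than their SDs, as did *HLA-C* and *HLA-B* (96.2 ± 13.5). *HLA-F* (4.92 ± 0.632) and *PSMB9* (3.07 ± 0.814) were also apart there, but in KD-wDox they stood at 7.40 ± 2.76 and 7.22 ± 1.32 RPKM and did not differ beyond their SDs. With KD-wDox 4 included, neither did *B2M* (196 ± 56.0) and *HLA-C* (190 ± 96.9), *HLA-B* (94.3 ± 24.3) and *HLA-E* (92.8 ± 16.1), or *TAP2* (7.51 ± 0.728) and *HLA-F*. The place of *B2M* depended on the length used, since per kilobase of all annotated exons its mean was 55.3, below *HLA-C* at 98.0 and *HLA-E* at 63.0.

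**Figure D2:**
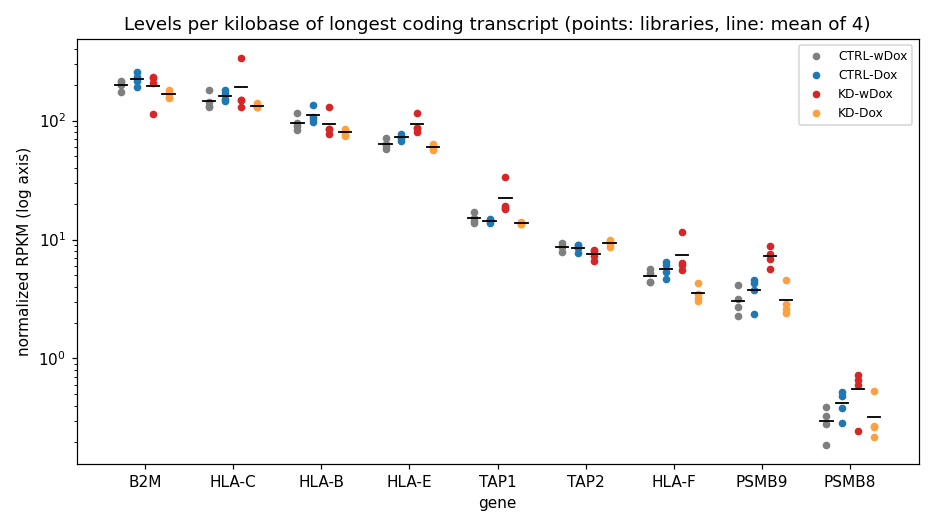
Level of each member per kilobase of its longest coding transcript (normalized RPKM, log axis), with a point for each library and a line at the mean of 4. B2M and HLA-C lead with means of 197 and 158 RPKM over 16 libraries, and PSMB8 is lowest at 0.399.

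*PSMB8*, the inducible subunit with chymotrypsin-like activity, had 3 to 13 counts per library and exceeded 1 CPM in 0 of 16. It did not pass the filter in any comparison and was not tested, which leaves 8 of 9 members. Its levels were 0.801 to 0.987 CPM in KD-wDox 1 to 3, above the 12 libraries of the other groups (0.255 to 0.726 CPM), but 0.329 CPM in KD-wDox 4. *PSMB9* had 21 to 85 counts, so that its counting error is large.

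**Figure D3:**
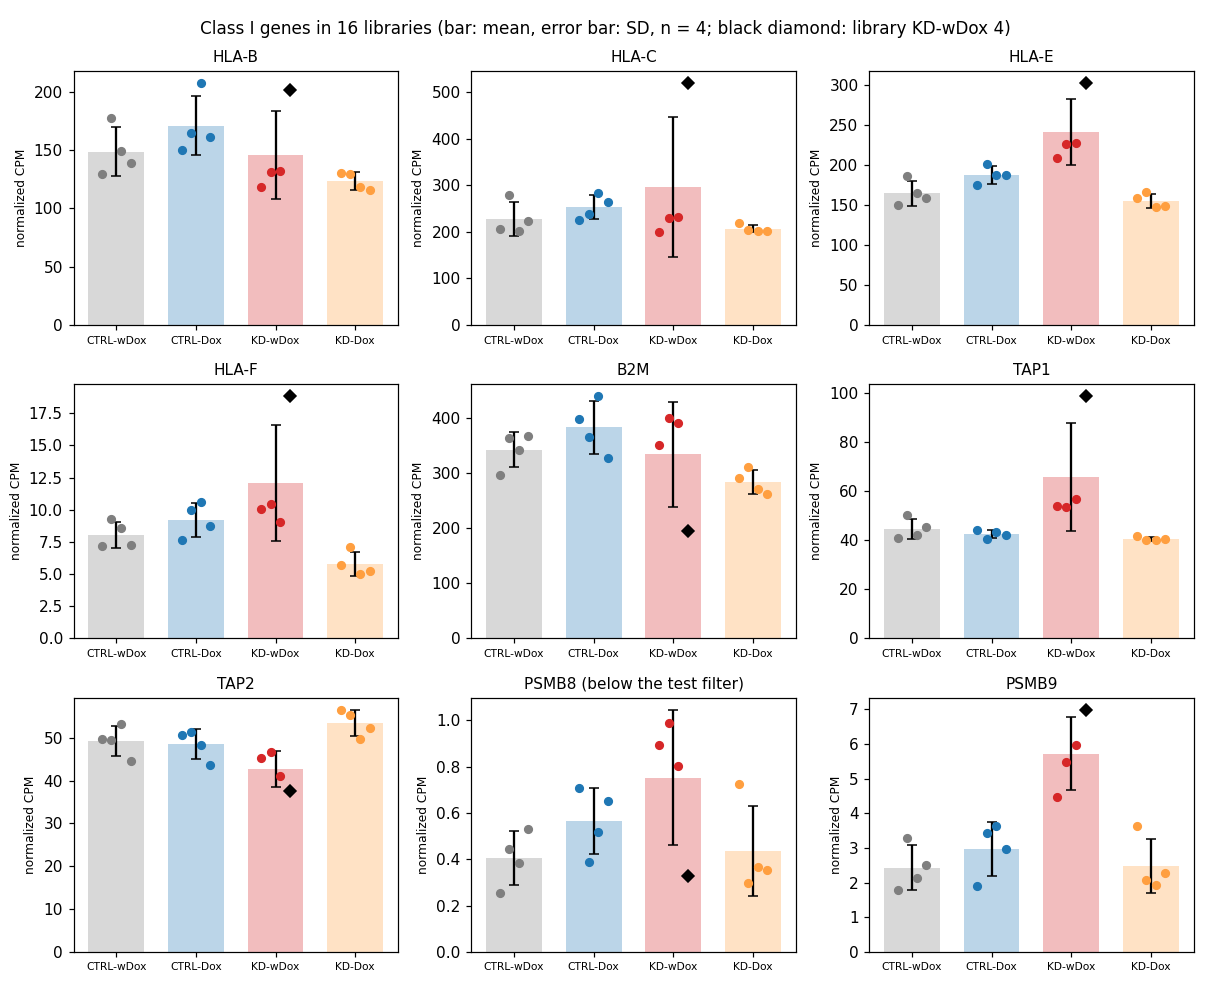
Normalized CPM of the 9 members in 16 libraries (points), with the mean and SD of each group of 4 (bars) and KD-wDox 4 as a black diamond. In KD-wDox, HLA-E (209 to 303 CPM), TAP1 (53.7 to 98.7 CPM) and PSMB9 (4.47 to 6.98 CPM) lie above all 12 libraries of the other groups. The share of all genes that lie apart in this way was not computed.

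The first comparison set the KD line against the CTRL line among libraries labelled as grown without doxycycline, those in which *NAA40* was low in KD. *PSMB9* rose. The non-classical *HLA-E* and the transporter subunit *TAP1* were higher in both fits and passed the test once KD-wDox 4 was left out. Neither classical heavy chain nor *B2M* passed it. With all 8 libraries 1 of 8 members tested was higher, against 2.88% of all genes, and 0 were lower, against 3.54%. Without KD-wDox 4, 3 of 8 were higher, against 17.1% of all genes, and 0 lower, against 19.4%. The median log2 difference of the members was 0.48, beside 0.04 over all genes tested, and 0.22 beside -0.01 without KD-wDox 4.

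*PSMB9*, which replaces the caspase-like subunit of the standard proteasome, had levels of 1.78, 3.29, 2.14 and 2.51 CPM in CTRL-wDox and 4.47, 5.46, 5.97 and 6.98 CPM in KD-wDox. The lowest KD-wDox library was above the highest CTRL-wDox library, also without KD-wDox 4. Here and below, the share of all genes whose groups did not overlap was not computed, so that a lack of overlap only describes levels. It was 2.37-fold higher in KD-wDox (log2 1.24, SE 0.24, adjusted p = 0.0194), and 2.18-fold without KD-wDox 4 (adjusted p = 0.00113). The call was lost when CTRL-wDox 1 (adjusted p = 0.0702), CTRL-wDox 3 (0.0758), CTRL-wDox 4 (0.0683) or KD-wDox 2 (0.0505) was left out, each with KD-wDox 4 kept.

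*HLA-E*, which presents signal peptides of other class I chains to the NKG2A receptor of natural killer cells, had levels of 150, 186, 164 and 158 CPM in CTRL-wDox and 209, 226, 228 and 303 CPM in KD-wDox. The groups did not overlap. The log2 difference was 0.56 (SE 0.16, adjusted p = 0.0709), which missed the threshold, and 0.42 without KD-wDox 4 (SE 0.09, adjusted p = 0.00177), which passed it. *TAP1* stood at 41.0, 50.1, 42.0 and 45.3 CPM in CTRL-wDox and at 54.0, 53.7, 56.7 and 98.7 CPM in KD-wDox. Its groups did not overlap either, and the difference of 0.57 (SE 0.23, adjusted p = 0.162) became 0.29 without KD-wDox 4 (SE 0.09, adjusted p = 0.0207). A smaller difference was thus called where the spread was smaller.

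*HLA-C*, a ligand of killer immunoglobulin-like receptors, had levels of 206, 280, 201 and 224 CPM in CTRL-wDox and 201, 231, 231 and 521 CPM in KD-wDox. The higher mean of KD-wDox came from KD-wDox 4: the log2 difference was 0.39 with it (SE 0.30, adjusted p = 0.475) and -0.05 without it (SE 0.11, adjusted p = 0.753). *B2M* went the other way, with 298, 363, 343 and 368 CPM in CTRL-wDox and 351, 400, 391 and 195 CPM in KD-wDox. Its difference was -0.03 (SE 0.21, adjusted p = 0.948), and 0.15 without KD-wDox 4 (SE 0.09, adjusted p = 0.233). The difference of *HLA-B* was -0.02 (adjusted p = 0.972), and -0.23 without KD-wDox 4 (adjusted p = 0.0933). *HLA-F*, a heavy chain that can reach the surface without peptide, differed by 0.60 (SE 0.26, adjusted p = 0.192), and by 0.29 without KD-wDox 4 (adjusted p = 0.128). *TAP2* differed by -0.20 (adjusted p = 0.419), and by -0.16 without KD-wDox 4 (adjusted p = 0.214). Summed epithelial markers were 4032 to 5178 CPM in CTRL-wDox and 5624 to 6588 CPM in KD-wDox 1 to 3, with 12217 CPM in KD-wDox 4, and their part in these differences was not tested.

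**Figure D4:**
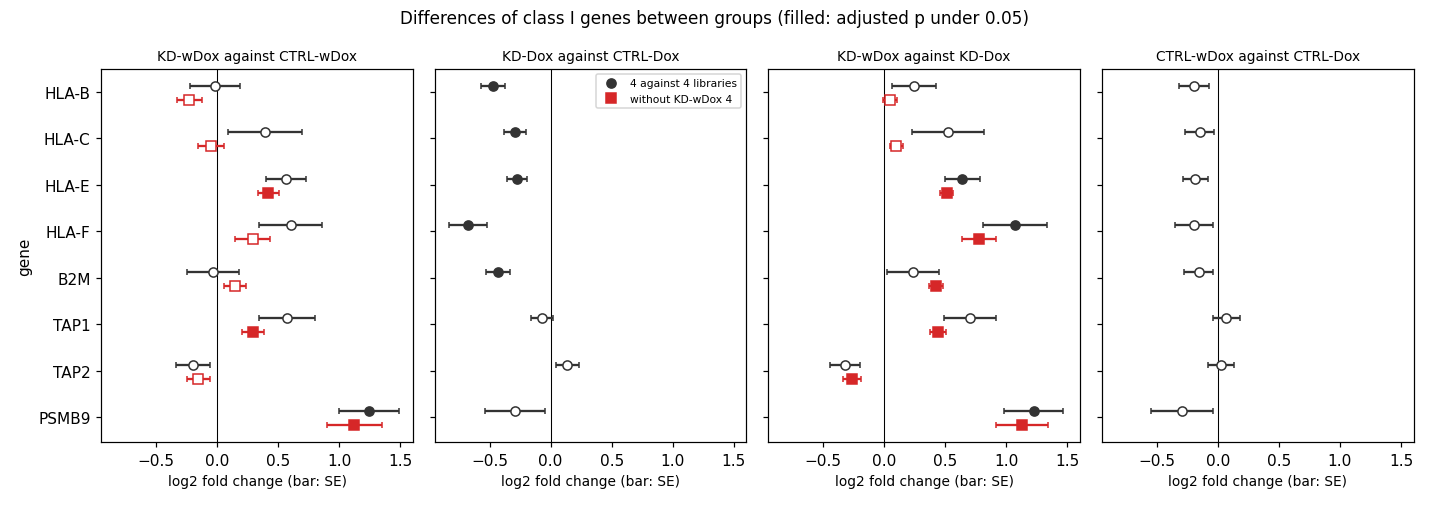
Log2 fold change (horizontal axis, bars SE) of the 8 tested members in the 4 comparisons of groups, with all libraries (circles) and without KD-wDox 4 (squares), filled at an adjusted p under 0.05. Against CTRL-Dox, 5 members of KD-Dox lie below 0 with filled points, HLA-F at -0.68 and HLA-B at -0.47 furthest.

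The second comparison set KD-Dox against CTRL-Dox, the libraries labelled as treated, where *NAA40* was not low (log2 difference 0.15, adjusted p = 0.281). All 4 heavy chains and *B2M* fell, while the transporter and *PSMB9* did not pass the test. In all, 5 of 8 members were lower, against 13.7% of all genes, and 0 were higher, against 10.9%. The median log2 difference was -0.29, beside -0.004 over all genes tested.

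*HLA-B* had levels of 150, 165, 208 and 161 CPM in CTRL-Dox and 130, 129, 119 and 116 CPM in KD-Dox, without overlap. It fell by 0.47 on the log2 scale (SE 0.10, adjusted p = 0.00235). *HLA-C*, next to it on the chromosome, had levels of 226, 238, 283 and 264 CPM in CTRL-Dox and 218, 204, 202 and 202 CPM in KD-Dox. Here too every KD-Dox library was below every CTRL-Dox library, by a smaller margin, and the gene fell by 0.29 (SE 0.09, adjusted p = 0.0214). That call was lost without KD-Dox 2 (adjusted p = 0.0652), KD-Dox 3 (0.0799) or KD-Dox 4 (0.0760).

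*HLA-E* stood at 174, 201, 187 and 188 CPM in CTRL-Dox and at 159, 166, 147 and 149 CPM in KD-Dox, without overlap. It fell by 0.27 (SE 0.08, adjusted p = 0.0221), a call lost without CTRL-Dox 2 (adjusted p = 0.0569), KD-Dox 1 (0.0600), KD-Dox 3 (0.103) or KD-Dox 4 (0.0918). *HLA-F* showed the largest difference of the 8 members, from 7.62, 9.96, 10.6 and 8.70 CPM in CTRL-Dox to 5.72, 7.09, 5.01 and 5.25 CPM in KD-Dox. Its groups did not overlap, and it fell by 0.68 (SE 0.15, adjusted p = 0.00409).

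*B2M*, without which heavy chains are not stably displayed, had levels of 399, 367, 439 and 327 CPM in CTRL-Dox and 292, 311, 272 and 262 CPM in KD-Dox. It fell by 0.43 (SE 0.10, adjusted p = 0.00354), again with no overlap of the groups. The falls of *HLA-B*, *HLA-F* and *B2M* passed the threshold whichever of the 8 libraries was left out, with adjusted p up to 0.0244. The calls did depend on which libraries shared the estimate of the spread: in a fit over all 16 libraries 0 of the 5 passed (adjusted p of 0.0711 to 0.516), and in a fit over the 15 libraries other than KD-wDox 4 all 5 did.

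*TAP1* had 44.1, 40.6, 43.3 and 42.3 CPM in CTRL-Dox and 41.6, 40.2, 40.1 and 40.3 CPM in KD-Dox, with a log2 difference of -0.07 (SE 0.09, adjusted p = 0.598). *TAP2* differed by 0.14 (SE 0.09, adjusted p = 0.291), and *PSMB9* by -0.29 (SE 0.25, adjusted p = 0.415). For *PSMB9* a difference as large as that of *HLA-C* thus went with an SE near 3 times as large. Summed epithelial markers were 4603 to 5801 CPM in CTRL-Dox and 4401 to 4714 CPM in KD-Dox, with *KRT8* lower by a log2 difference of -0.32 (adjusted p = 0.0239), and summed leukocyte markers 2.28 to 3.04 and 1.85 to 2.90 CPM. Their part in the result was not tested. In bulk RNA, fewer cells of a type and less RNA per cell cannot be told apart.

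The third comparison, within the KD line, shares its libraries with both comparisons above. *HLA-E*, *HLA-F* and *PSMB9* were higher in KD-wDox than in KD-Dox, 3 of 8 members against 5.50% of all genes, and 0 were lower, against 4.71%. The log2 differences were 0.64 for *HLA-E* (SE 0.15, adjusted p = 0.0260), 1.07 for *HLA-F* (SE 0.26, adjusted p = 0.0334) and 1.22 for *PSMB9* (SE 0.24, adjusted p = 0.0165). *HLA-F* was at 10.0, 10.5, 9.03 and 18.8 CPM in KD-wDox and at 5.72, 7.09, 5.01 and 5.25 CPM in KD-Dox. The groups did not overlap for *HLA-E*, *HLA-F* or *PSMB9*. *TAP1* differed by 0.70 (adjusted p = 0.0686).

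Leaving out KD-wDox 4 brought more calls, here and over all genes. It gave 5 of 8 members higher, against 26.6% of all genes, and 1 lower, against 25.8%. *HLA-E* then differed by 0.51 (adjusted p = 2.22e-08), *HLA-F* by 0.77 (6.58e-05), *B2M* by 0.42 (2.48e-06), *TAP1* by 0.44 (3.97e-06) and *PSMB9* by 1.13 (8.69e-05), while *TAP2* fell by 0.26 (0.00286). *TAP2* was at 45.4, 46.6, 41.1 and 37.5 CPM in KD-wDox and 56.5, 55.2, 49.7 and 52.3 CPM in KD-Dox, and was the member whose difference went against that of its partner *TAP1*. Its counts include reads that could belong to *AL669918.1*, a gene on the same strand that covers 32.3% of its exonic length and was not used here. *HLA-B* and *HLA-C* were not called either way (log2 differences of 0.24 and 0.52, and of 0.05 and 0.10 without KD-wDox 4). With KD-wDox 4 kept, leaving out a library of KD-Dox took away most of these calls: *HLA-E* was lost without KD-Dox 1, 2, 3 or 4 or KD-wDox 2 or 3 (adjusted p of 0.0510 to 0.105), *HLA-F* without KD-Dox 1, 2, 3 or 4 or KD-wDox 1 or 2 (0.0518 to 0.116), and *PSMB9* without KD-Dox 2, 3 or 4 (0.0659 to 0.0708).

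Between CTRL-wDox and CTRL-Dox, the effect of the doxycycline label without an shRNA against *NAA40*, 0 of 8 members passed edgeR's test, and neither did any of all 13882 genes (0%). At an unadjusted p under 0.05 there were 0 members and 271 genes, and DESeq2 called 0 of both. The log2 differences of the members lay between -0.29 for *PSMB9* (SE 0.25) and 0.07 for *TAP1* (SE 0.11). The heavy chains and *B2M* lay between -0.20 and -0.15 with SEs of 0.10 to 0.16.

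The difference between KD and CTRL itself differed between the doxycycline labels for *HLA-E*, *HLA-F* and *PSMB9*. In the fit over all 16 libraries the interaction, taken as KD minus CTRL among wDox libraries less the same among Dox libraries, was 0.82 for *HLA-E* (SE 0.17, adjusted p = 0.00667), 1.26 for *HLA-F* (SE 0.30, adjusted p = 0.0144) and 1.52 for *PSMB9* (SE 0.36, adjusted p = 0.0140). These 3 of 8 members compare with 4.91% of all genes higher by this test, and they passed it whichever of the 16 libraries was left out. Without KD-wDox 4, *B2M* (0.59, adjusted p = 0.00333) and *TAP1* (0.37, adjusted p = 0.0240) passed as well, 5 of 8 against 12.3% of all genes. The interaction was 0.44 for *HLA-B* (adjusted p = 0.236), 0.67 for *HLA-C* (0.211) and -0.35 for *TAP2* (0.172), and these did not pass with or without KD-wDox 4. With an offset for GC content, added after seeing the data, *HLA-C* (0.33, adjusted p = 0.0303) and *TAP2* (-0.34, 0.0334) passed. *HLA-B* did not (0.20, 0.274).

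The counts of some members hold reads that could belong to other genes, as the strand setting and the treatment of reads with several matches are not given in the sources used here. Windows of 50 bases found also in another gene made up 35.8% of the reference transcript of *TAP2*, 12.1% of *PSMB9*, 6.71% of *HLA-C*, 5.13% of *HLA-E*, 2.54% of *HLA-B* and 1.70% of *HLA-F*, and 0% of *B2M*. *PSMB9* shares 139 exonic bases with *PSMB8* on the opposite strand, and *HLA-F* shares 535 with *HLA-F-AS1*, which had 18 to 44 counts. The alleles of HCT116 can differ from the reference, so that these shares are approximate for the heavy chains.

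The other genes of the pathway were read from lists written by hand, and each count is given beside the share of all genes called in the same direction. Of 12 genes for peptide loading and trimming, all tested, 4 rose (10.9% of all genes) and 1 fell (13.7% of all genes) in KD-Dox against CTRL-Dox, with a list median of 0.18. *ERAP1*, the aminopeptidase that trims peptides in the endoplasmic reticulum, rose by 0.65 (adjusted p = 0.000788) and *LNPEP*, an endosomal aminopeptidase of cross-presentation, by 0.52 (0.00328), while the chaperone *HSPA5* fell by 1.22 (1.57e-08). *HSPA5* stood at 2087, 2080, 2274 and 2122 CPM in CTRL-Dox and at 916, 920, 927 and 920 CPM in KD-Dox. In KD-wDox against CTRL-wDox 1 of the 12 rose and 1 fell (2.88% and 3.54% of all genes), with a median of 0.10. In that comparison *ERAP1* differed by 0.63 (adjusted p = 0.117), *LNPEP* by -0.26 (0.642) and *HSPA5* by -0.35 (0.229). Without KD-wDox 4 they differed by 0.79 (0.000294), -0.009 (0.954) and -0.32 (0.0743). Their interactions over all libraries were -0.03 (adjusted p = 0.964), -0.79 (0.167) and 0.86 (0.00619). *TAPBPL*, a peptide editor related to tapasin, was higher by 1.54 (adjusted p = 0.0267), and by 1.33 without KD-wDox 4. Its levels were 0.711 to 1.30 CPM in CTRL-wDox and 1.75 to 4.11 CPM in KD-wDox. In the fit with KD-wDox 4 it passed the filter on low counts through KD-wDox, which favours a rise.

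Of 9 proteasome genes, 4 of 9 tested fell in KD-Dox against CTRL-Dox (13.7% of all genes). Among them were the standard catalytic subunits *PSMB6* (-0.57, adjusted p = 0.00209), *PSMB7* (-0.49, 0.00240) and *PSMB5* (-0.31, 0.0320). *PSMB6* is the subunit that *PSMB9* replaces. In KD-wDox against CTRL-wDox, 1 of 8 tested fell, the activator subunit *PSME3* (-0.79, adjusted p = 0.0227), against 3.54% of all genes, and 0 rose. The list medians were -0.03 and -0.28. *PSMB5*, *PSMB7* and *PSMB6* differed by -0.34 (adjusted p = 0.351), -0.36 (0.206) and -0.0003 (0.999) in KD-wDox against CTRL-wDox. Without KD-wDox 4 they differed by -0.54 (0.00143), -0.41 (0.00808) and -0.25 (0.137). Their interactions, -0.04 (0.933), 0.12 (0.721) and 0.55 (0.217), were not called. Of 11 transcription regulators, all tested, *RFX5*, which binds the X box of MHC promoters, fell in KD-Dox against CTRL-Dox (-0.33, adjusted p = 0.00961), 1 of 11 against 13.7% of all genes, and 0 rose. In KD-wDox against CTRL-wDox 0 regulators passed.

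Without KD-wDox 4, KD-wDox against CTRL-wDox had 5 genes higher and 1 lower of the 12 for loading and trimming, 0 and 3 of 8 tested proteasome genes, 2 and 2 of the 11 regulators, 0 and 2 of 4 tested class I-like molecules and 0 and 1 of 7 tested class II genes. In the same fit 17.1% of all genes were higher and 19.4% lower, and several of these counts are near those shares.

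The regulators *NLRC5* and *IRF1* were picked out after their values had been seen. *NLRC5*, which drives class I promoters, differed by -0.25 in KD-Dox against CTRL-Dox (adjusted p = 0.231) and by -0.23 in KD-wDox against CTRL-wDox (0.550; -0.49 and 0.00370 without KD-wDox 4). *IRF1*, an interferon-responsive activator, had levels of 14.4, 20.4, 15.4 and 15.3 CPM in CTRL-wDox and 22.9, 25.2, 25.3 and 32.4 CPM in KD-wDox, without overlap. Its difference there was 0.70 (SE 0.18, adjusted p = 0.0503), and 0.57 without KD-wDox 4 (adjusted p = 0.00226). In KD-Dox against CTRL-Dox it was 0.09 (adjusted p = 0.573).

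The class II genes, which present peptides from outside the cell to CD4+ T cells and share the X box factors, were weakly expressed. In KD-Dox against CTRL-Dox, 5 of 6 tested of 10 fell (13.7% of all genes), with a list median of -1.42 beside -0.004 over all genes. *HLA-DRB1* was at 7.15, 7.94, 8.001 and 8.62 CPM in CTRL-Dox and at 3.09, 3.47, 2.06 and 2.49 CPM in KD-Dox, a fall of 1.52 (SE 0.17, adjusted p = 7.12e-06). *HLA-DRA* fell by 2.27 (adjusted p = 0.000164), *HLA-DQB1* by 1.51 (6.80e-05) and *HLA-DMA*, which helps to load class II, by 0.71 (0.00226). *HLA-DRA* was at 0.147 to 0.544 CPM in KD-Dox, so that its fold rests on few counts. It was at 1.49 to 2.74 CPM in CTRL-Dox, while *HLA-DPA1* was at 0.516 to 1.03 CPM in KD-Dox and 1.56 to 2.32 CPM in CTRL-Dox. Both passed the filter on low counts through CTRL-Dox, so that the count of 5 and the list median lean towards a fall. *HLA-DRB1*, *HLA-DQB1* and *HLA-DMA* were above 1 CPM in every library of both groups. In KD-wDox against CTRL-wDox 0 of 7 tested passed, with a median of -0.07. Of 6 class I-like molecules, 3 of 4 tested fell in KD-Dox against CTRL-Dox (13.7% of all genes). They were the iron regulator *HFE* (-0.52, adjusted p = 0.00457), *AZGP1* (-0.78, 0.0307) and the endothelial protein C receptor *PROCR* (-0.27, 0.0406). *AZGP1* also passed the filter through CTRL-Dox, at 1.63 to 2.28 CPM there and 0.907 to 1.40 CPM in KD-Dox. In KD-wDox against CTRL-wDox 0 of 5 passed.

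**Figure D5:**
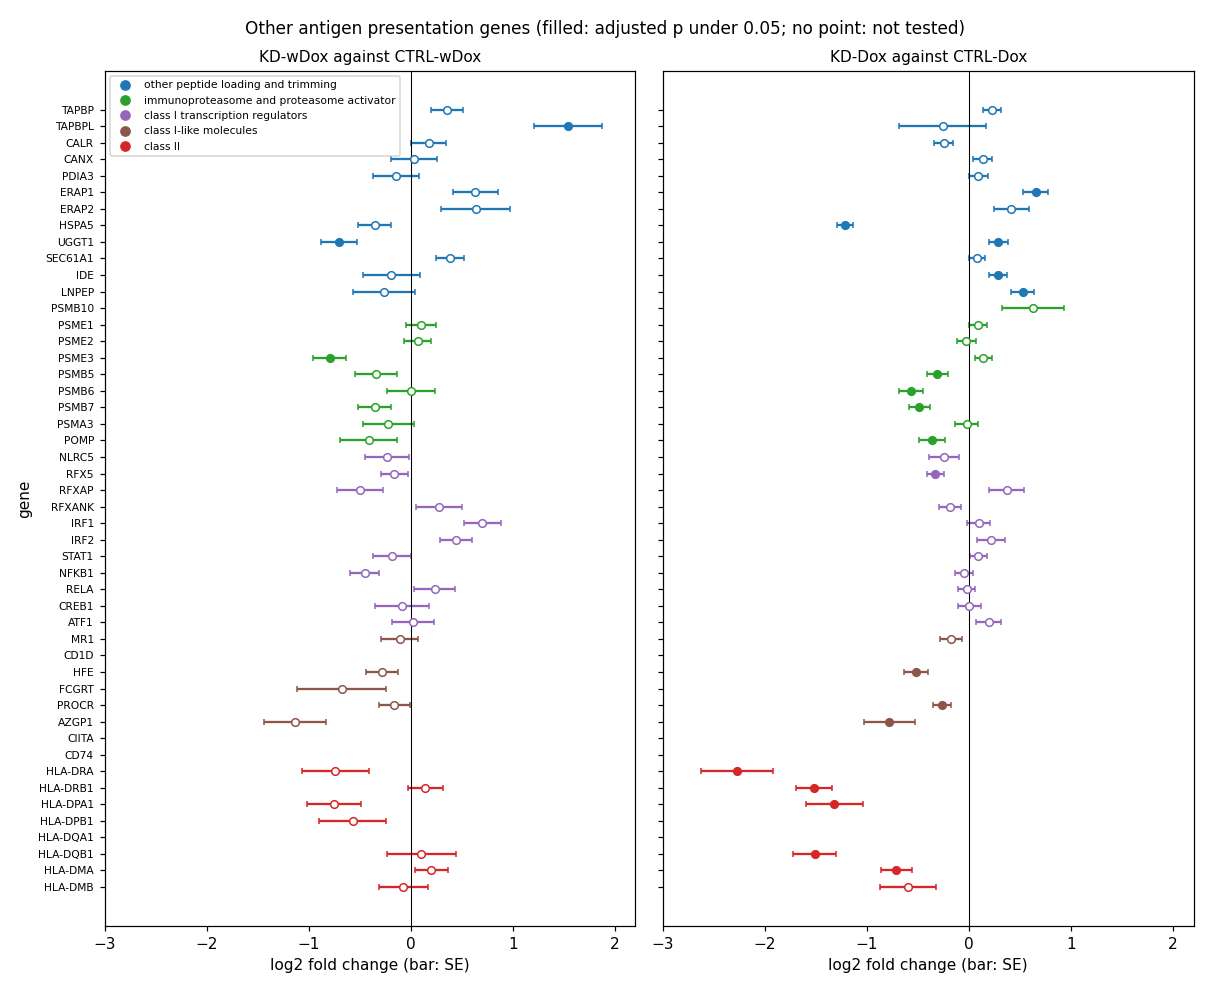
Log2 fold change (horizontal axis, bars SE) of the other antigen presentation genes, coloured by list, in 2 comparisons, filled at an adjusted p under 0.05. Class II genes of KD-Dox lie to the left of 0 against CTRL-Dox, HLA-DRA furthest at -2.27, and those of KD-wDox lie on both sides of 0 against CTRL-wDox.

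The genes most like the members were those with the highest Pearson correlation, over 16 libraries of log2 CPM, with the mean standardised profile of the 8 tested members. They were *SERTAD3* (r = 0.95), *SULT2B1* (0.93), *RINL* (0.93), *MAFF* (0.93) and *YIPF3* (0.93), and without KD-wDox 4 their values were 0.94, 0.90, 0.90, 0.90 and 0.90. *SERTAD3* was also first of all genes without that library, followed by *DUSP5* (0.93). The libraries fall into 4 groups and include KD-wDox 4 with its GC pattern, so that these values describe likeness over groups and libraries together. They describe the mean of the members and not each member. With the other members *TAP2* ran from r = -0.80 (*TAP1*) to 0.17 (*B2M*), and *B2M* from -0.40 (*HLA-C*) to 0.17 (*TAP2*). Without KD-wDox 4 *TAP2* ran from -0.67 (*TAP1*) to -0.06 (*HLA-B*), and *B2M* from -0.45 (*TAP2*) to 0.84 (*HLA-F*).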

How the data were processed

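RNA-seq was performed on 16 libraries, each group with 4 independent RNA samples per the study's methods, and groups were taken from the labels. The authors deposited raw counts of reads per gene, aligned with STAR and counted with featureCounts, without normalization. The methods name mm10 and the submitters' processing notes hg38 and GRCm38, while all 33937 identifiers are human. Kits are given as RNeasy and stranded NEBNext in the methods, and as Direct-zol and Illumina protocols in the labels. 33590 identifiers had a symbol and 33811 were found in GENCODE 29.

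From the deposited counts, TMM normalization and robust quasi-likelihood F tests (two-sided) were run in edgeR 4.0.16 (R 4.3.3) on genes with CPM >1 in at least 4 libraries, with Benjamini-Hochberg adjustment over all genes tested. Each pair of groups was fitted on its own 8 libraries and the interaction on 16. Changes in levels were called at an adjusted p under 0.05. Adding a threshold of 1 on the absolute log2 fold change was an alternative. Levels are TMM-normalized CPM, and RPKM divide these by the longest coding transcript. Standard errors are the log2 fold change over the square root of F. Promoters were aligned with Biopython 1.88. The scripts were tested on simulated data.

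The 9 members and all lists were chosen with earlier results of these data known. Named genes are the members, *NAA40*, up to 4 called genes per list by adjusted p in the comparisons of KD with CTRL, and the 5 genes most like the members. *NLRC5*, *IRF1* and *UGGT1* were added after their values had been seen. Alternatives were DESeq2 1.42.0, limma-voom (limma 3.58.1), library-size scaling, no filter, each library left out, the replicate number as a block and a single fit to the 16 libraries. An offset for GC content (lowess, span 0.3) and a fit over 15 libraries without KD-wDox 4 were added after seeing the data. Ratios of chi-square to degrees of freedom between libraries of a group (1.74 to 140) exceeded sampling noise, and each library counted as a replicate. Total counts of 11065606 to 13855486 limit precision for weakly expressed members.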

Additional observations from a re-analysis of the deposited data

Results flagged for a closer look

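Among 36 groups of 4 libraries (9 members in 4 groups), 7 held a library far from the other 3 by Dixon's criterion, where chance gives about 1 in 20. In KD-wDox, library 4 was high for *HLA-B* (201 CPM, others 119 to 132 CPM), *HLA-C* (521 CPM, others 201 to 231 CPM), *HLA-F* (18.8 CPM, others 9.03 to 10.5 CPM) and *TAP1* (98.7 CPM, others 53.7 to 56.7 CPM). In KD-Dox, library 1 was high for *HLA-C* (218 CPM, others 202 to 204 CPM), *TAP1* (41.6 CPM, others 40.1 to 40.3 CPM) and *PSMB8* (0.726 CPM, others 0.295 to 0.368 CPM), where the other 3 libraries lay close together. *PSMB8* rests on 4 to 8 counts there.

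The difference between the KD and CTRL lines was not the same under both doxycycline labels for 3 members by the test of the interaction: *HLA-E* (0.82), *HLA-F* (1.26) and *PSMB9* (1.52), as log2 differences with KD minus CTRL higher among the wDox libraries.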

How the results depend on the processing

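Of the values of single members recomputed under each alternative, 611 kept their direction and their side of the threshold, 36 lost a call, 29 gained one and 12 changed sign. In KD-wDox against CTRL-wDox, 1 member was called; DESeq2 called 2, a fit over all 16 libraries 3, a fit over 15 libraries without KD-wDox 4 called 3, the GC offset 4, and fits without 1 library 0 to 3. In KD-Dox against CTRL-Dox, 5 were called, but 0 in a fit over all 16 libraries and 0 with an absolute log2 fold change above 1 as well, and 3 to 5 in fits without 1 library. In KD-wDox against KD-Dox, 3 were called, with 5 over 16 libraries, 6 over 15 libraries, 7 with the GC offset and 0 to 6 without 1 library. The 7 included *HLA-C* (0.19, adjusted p = 0.0354). For the interaction the GC offset called 7 in place of 3, and fits without 1 library 3 to 5; between the CTRL groups these gave 0 throughout. Signs changed in KD-wDox against CTRL-wDox for *HLA-B* (-0.017), which ran from -0.23 without KD-wDox 4 to 0.077 without CTRL-wDox 2 and was also above 0 without KD-wDox 1, 2 or 3, for *HLA-C* (0.39), which ran from -0.050 without KD-wDox 4 to 0.55 without KD-wDox 1 and was -0.039 over 15 libraries, and for *B2M* (-0.034), which ran from -0.13 without KD-wDox 2 to 0.15 without KD-wDox 4 and was 0.092 with the GC offset, 0.16 over 15 libraries and 0.0048 without CTRL-wDox 4. For *TAP2* between the CTRL groups (0.026) the value ran from -0.022 without CTRL-Dox 4 to 0.064 without CTRL-wDox 4, and was -0.012 without CTRL-wDox 3. None of these values was called. Over all genes, KD-wDox against CTRL-wDox gave 892 calls, and 1914 with DESeq2, 2951 over 16 libraries, 5204 over 15 libraries, 4999 with the GC offset, 483 with the fold threshold and 226 to 5021 without 1 library. KD-Dox against CTRL-Dox gave 3402, and 966 over 16 libraries, 298 with the fold threshold and 2334 to 3482 without 1 library. KD-wDox against KD-Dox gave 1414, and 2526 with DESeq2, 3210 over 16 libraries, 5153 over 15 libraries, 6102 with the GC offset, 552 with the fold threshold and 380 to 7183 without 1 library. The CTRL groups gave 0, and 1 without a filter on low counts; the interaction gave 1327, and 4166 with the GC offset, 646 with the fold threshold and 820 to 3467 without 1 library. The replicate numbers did not pair the samples, since in none of the 4 comparisons did each of the 4 correlations of same-numbered deviations exceed 0.1 (range -0.42 to 0.24). In KD-wDox against KD-Dox they ran from 0.034 to 0.24, with 3 of 4 over 0.1, and 5 of 8 libraries correlated best with their own number; with the number as a replicate block 0, 5, 0 and 0 members were called in the 4 comparisons and 3 in the interaction, and 82 and 777 genes in KD-wDox against CTRL-wDox and against KD-Dox. The calls lost there were *PSMB9* against CTRL-wDox (adjusted p = 0.0712), and *HLA-E* (0.0755), *HLA-F* (0.0615) and *PSMB9* (0.0511) against KD-Dox. The cause of these changes was not tested, nor was that of the deviation of KD-wDox 4, which followed GC content across genes. At this depth *PSMB8* could not be tested, and *PSMB9*, *HLA-F* and the class II genes rest on few counts.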
